A study of Drosophila melanogaster with 2 samples.

Results

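Binding of the homeodomain protein Gsc was examined at the 8 T-box genes mid, H15, bi, Doc1, Doc2, Doc3, org-1 and byn of Drosophila melanogaster, out of 13968 protein-coding genes on the 7 chromosome arms. Gsc, the fly Goosecoid, carried an eGFP tag in transgenic flies, and chromatin from whole embryos 0 to 24 h old was precipitated with an anti-GFP antibody and sequenced (ChIP-seq). The series holds 1 group of 2 biological replicates, both with the tagged protein, and an untagged or input library was not analysed here. Because whole embryos of all stages were pooled, a region of low signal in many cells and one of high signal in few cannot be told apart. The genes were chosen by family, with the thresholded signals of this series already known, so the values below are a description without tests. A region was given to a gene when its summit lay nearest to a transcription start site (TSS) of that gene among protein-coding genes, or inside the gene.

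T-box factors bind DNA through the conserved T domain, first described in Brachyury, and act as activators or repressors during development of mesoderm, gut, limbs and heart. In the fly, byn (Brachyenteron) is the Brachyury homologue and is needed for the hindgut. The closely related pair mid (midline) and H15 are Tbx20 homologues that act in the heart and in the segmented epidermis. The 3 Dorsocross genes Doc1, Doc2 and Doc3 act in the amnioserosa and the dorsal mesoderm. The bi gene (optomotor-blind), of the Tbx2/3 type, is a target of the growth factor Dpp in the wing disc, and org-1, of the Tbx1 type, is used in embryonic muscle. Gsc itself belongs to the paired-like homeodomain proteins and is of the Bicoid-like class, known to bind the word TAATCC.

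Of the 8 genes, 6 had at least 1 thresholded region, 7 regions in all out of 1470 on the arms. The thresholded list holds regions with an irreproducible discovery rate (IDR) of at most 0.01. Under the same assignment, 9.22% of all protein-coding genes had a region. The regions belonged to mid, H15, bi, Doc1, Doc2 (with 2) and org-1, while Doc3 and byn had none. Their reference sequences follow (Release 6 assembly, dm6, plus strand), because some of the words described further on are read from them. Except at org-1, words found within 150 bp but not within 50 bp of a summit lie outside the sequences shown. For 6 regions the 101 bases around the summit are given, and capitals mark the only match there to any of 7 words searched on both strands, the T-box core word AGGTGT. For org-1 300 bases around the summit are given, and capitals mark the word ACAGTG in either orientation.

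mid (chr2L:5476800-5476900): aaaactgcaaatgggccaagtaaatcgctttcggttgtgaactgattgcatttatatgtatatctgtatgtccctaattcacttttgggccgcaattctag
H15 (chr2L:5425543-5425643): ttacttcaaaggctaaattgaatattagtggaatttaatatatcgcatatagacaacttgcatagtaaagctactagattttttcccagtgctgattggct
bi (chrX:4446259-4446359): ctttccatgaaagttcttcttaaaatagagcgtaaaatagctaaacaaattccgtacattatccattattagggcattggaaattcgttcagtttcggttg
Doc1 (chr3L:9034383-9034483): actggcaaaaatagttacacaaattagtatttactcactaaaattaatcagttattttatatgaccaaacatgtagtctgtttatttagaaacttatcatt
Doc2 near region (chr3L:9023696-9023796): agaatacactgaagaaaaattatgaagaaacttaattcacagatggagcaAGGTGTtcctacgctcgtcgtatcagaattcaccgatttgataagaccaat
Doc2 far region (chr3L:9025877-9025977): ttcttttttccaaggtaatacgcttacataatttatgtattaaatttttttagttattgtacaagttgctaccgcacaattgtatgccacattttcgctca
org-1 (chrX:8455264-8455563): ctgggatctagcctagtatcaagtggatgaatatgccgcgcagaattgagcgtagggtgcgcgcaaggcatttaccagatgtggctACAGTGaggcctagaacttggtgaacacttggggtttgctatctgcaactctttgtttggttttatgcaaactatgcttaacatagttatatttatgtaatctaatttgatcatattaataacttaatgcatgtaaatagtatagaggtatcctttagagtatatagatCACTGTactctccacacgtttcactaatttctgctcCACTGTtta

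The strongest region was that of org-1 (FBgn0021767). It lay 345 bp upstream of the org-1 TSS and was the only promoter region of the family, a promoter being the stretch within 500 bp of a TSS (X, 8455325 to 8455539, in an intergenic stretch of 1767 bp between org-1 and CG32713). Its signal, the authors' value on a scale that the sources used here do not give, was 429 with both replicates together. The replicates' own ranked lists gave 244 in replicate 1 and 181 in replicate 2 (212 ± 44.1, SD, n = 2). It ranked 55th of the 1470 regions and 37th of the 532 promoter regions, whose median was 127. The TSS of the next gene, CG32713, was 2218 bp from the summit. By the number of regions and the signal in both replicates, the genes most like org-1 among 955 compared were Hsp27 (240 and 177 in replicates 1 and 2), Tina-1 (254 and 189) and MFS18 (253 and 195), each with 1 promoter region. Hsp27 codes for a small heat shock protein. The distances to org-1 were 0.04, 0.09 and 0.12 in log2 signal over the 2 replicates.

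Regions of the Dorsocross genes lay together in the sequence between Doc2 (FBgn0035956) and Doc1 (FBgn0028789), which are transcribed away from each other and stand 22128 bp apart. The stronger of the Doc2 regions was 6681 bp upstream of the Doc2 TSS (3L, 9025759 to 9026094), with a signal of 165, and 95.1 and 79.5 in replicates 1 and 2 (87.3 ± 11.0, SD, n = 2). A weaker one was 4500 bp upstream (3L, 9023578 to 9023913), with a signal of 69.0, and 47.3 and 25.5 in the replicates (36.4 ± 15.5). The Doc1 region was 6942 bp upstream of Doc1 (3L, 9034265 to 9034600), with a signal of 96.7, and 48.9 and 38.5 in the replicates (43.7 ± 7.31). All 3 thus fell in intergenic sequence, upstream of both genes, within 10687 bp. Runs of 3 regions within such a span held 14.1% of the 1416 regions left when 1 was kept of those that overlap. Doc3 (FBgn0035954), on the far side of Doc2 with CG5194 between them, had no region in the thresholded list and none in the ranked list behind it.

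The mid (FBgn0261963) and H15 (FBgn0016660) regions were both downstream of their genes. The mid region lay 15211 bp downstream of the TSS and 9240 bp beyond the end of the gene (2L, 5476682 to 5477017). Its signal was 160, with 96.7 in replicate 1 and 62.6 in replicate 2 (79.6 ± 24.1, SD, n = 2). The H15 region lay 20960 bp downstream of the nearest TSS and 9000 bp beyond the end of the gene (2L, 5425425 to 5425760), in the 45045 bp between H15 and mid. At 64.7 it was the weakest of the family. Replicate 1 had a signal of 38.9 there, with an IDR of 0.805 in its own ranked list. The ranked list of replicate 2 held no region over it, so no spread between replicates can be given. The distance between the summits of the pair was 51257 bp.

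The bi (FBgn0000179) region lay inside the gene, in an intron of all 7 annotated transcripts (X, 4446141 to 4446476), 19174 bp downstream of the nearest TSS. Its signal was 82.6, with 30.2 in replicate 1 and 61.6 in replicate 2 (45.9 ± 22.3, SD, n = 2). The region was the only one of the family with a higher value in replicate 2. The bi gene spans 72.79 kb, and the next TSS of another gene was 79892 bp away.

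**Figure D1:**
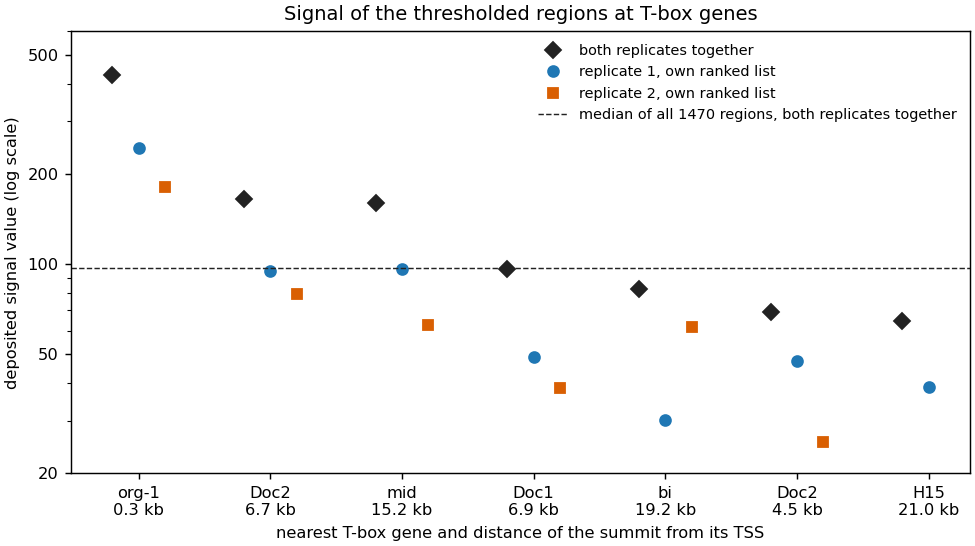
Deposited signal value (log scale) of the 7 thresholded regions at T-box genes, in falling order, from both replicates together (diamonds) and from each replicate's own ranked list (circles and squares), labelled by gene and distance to its TSS. The org-1 region stands at 429, the far Doc2 and mid regions at 165 and 160, and the other 4 at or below the median of all regions (dashed); H15 has no value in replicate 2.

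The order of the family by signal was org-1, the far Doc2 region, mid, Doc1, bi, the near Doc2 region and H15, as the plot of signals by region shows. The org-1 region was above every other T-box region in both replicates. The far Doc2 region was below mid in replicate 1 (95.1 against 96.7) and above it in replicate 2 (79.5 against 62.6). Doc1 was above the near Doc2 region in both replicates (48.9 against 47.3, and 38.5 against 25.5). The bi region was below both of these in replicate 1 (30.2) and above both in replicate 2 (61.6). Differences between regions were not tested. The median of the 7 was 96.7, against 97.4 for all 1470 regions, and the quartiles were 75.8 and 162 against 72.1 and 159. Apart from org-1, the T-box regions lay between the 64.7 of H15 and the 165 of Doc2.

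Most regions of the family lay far from start sites. Their summits had a median TSS distance of 6942 bp, against 1373 bp over all regions on the arms. Of the 7, 6 lay over 4000 bp from any protein-coding TSS (85.7%), against 34.2% of all regions. Intergenic sequence held 5 (71.4%, against 24.6%), an intron 1 (14.3%, against 34.8%) and a promoter 1 (14.3%, against 36.2%), and none was in a UTR or coding sequence. These classes were drawn from protein-coding genes only, so intergenic sequence here can hold noncoding genes. At the mid, H15 and Doc1 regions the nearest start of any gene was that of a noncoding gene. With 7 regions, of which 3 share 1 interval, these shares are coarse, and the difference was not tested. The sequence assigned to T-box genes is also longer than that of most genes, as described below. The distances and shares given here do not take this into account.

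**Figure D2:**
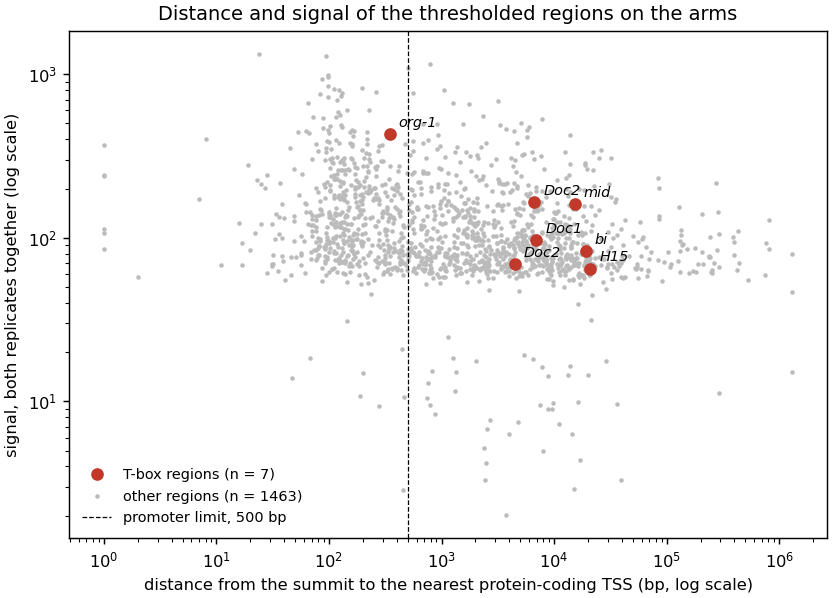
Distance from each summit to the nearest protein-coding TSS (log scale) against signal from both replicates together (log scale) for the 7 T-box regions (red) and the other thresholded regions on the arms (grey). The org-1 region alone lies within the promoter limit of 500 bp (dashed), and the other 6 lie between 4500 and 20960 bp.

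Long stretches of sequence belong to several of these genes, so the count of genes with a region is also given by length. The sequence that the assignment rule gives to a gene had a median length of 16.2 kb for the 8 genes and 5.26 kb for all protein-coding genes. It came to 96 kb for bi, 57.9 kb for H15 and 56.6 kb for mid, against 8.7 kb for org-1, 9.7 kb for byn and 5.8 kb for Doc3. Both lengths used next were chosen after the values were seen. With at least 40 kb, all 3 T-box genes had a thresholded region, against 34.4% of all genes of that size. With less than 40 kb, 3 of 5 T-box genes had one (Doc1, Doc2 and org-1), against 7.68% of all such genes. With at least the 8.66 kb of org-1, the shortest of a T-box gene with a region, 6 of 7 had one, against 17.8% of 4698 genes. That cutoff keeps all 6 by its definition and could drop only T-box genes without a region, here Doc3. These shares are therefore not a comparison at matched length. Per length, the T-box genes held 2.62 thresholded regions per 100 kb and the arms as a whole 1.07. Candidate regions, those ranked below the threshold, numbered 9.59 per 10 kb at T-box genes and 8.43 per 10 kb on the arms. Whether the difference in thresholded regions has to do with gene length was not tested.

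The replicates agreed on some of these regions and not on others. Those of mid, org-1 and the far Doc2 region were in the thresholded lists of both replicates, 3 of 7 (42.9%, against 43.5% of all regions on the arms). The bi region was only in that of replicate 2, the Doc1 and near Doc2 regions only in that of replicate 1, and the H15 region in neither. Thus 42.9% of the T-box regions were in the list of 1 replicate only, against 28.9% of all regions on the arms. The share in neither list was 14.3%, against 27.6%. Counted by genes, 4 of 8 had a region in replicate 1 (mid, Doc1, Doc2 and org-1), where 7.08% of all genes had one. In replicate 2 they were again 4 (mid, bi, Doc2 and org-1), where 5.73% of all genes had one. The conservative list, which ranks the replicates' own regions against each other, kept 5 genes and lost H15, where 8.77% of all genes had a region. Its 5 regions left out that of H15 and the near Doc2 region, with an IDR between the replicates of 0.0216 and 0.0118. It thus kept 71.4% of the T-box regions, against 82.4% of all regions on the arms.

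Of the 6 regions measured in both replicates, bi alone had a higher value in replicate 2. By rank of these values among the thresholded regions on the arms, bi stood 1329th in replicate 1 and 475th in replicate 2. The far Doc2 region also stood slightly higher in replicate 2, 324th against 338th. The log2 ratio of replicate 2 to replicate 1 was 1.03 at bi, above that of 97.7% of the 1409 regions with both values. At the other 5 it ran from -0.90 at the near Doc2 region to -0.26 at the far one, and the median of all regions was -0.24. In the replicates' own lists the bi region had an IDR of 0.241 in replicate 1 and 0.00109 in replicate 2, and the near Doc2 region 0.00211 in replicate 1 and 0.829 in replicate 2. Summits were placed within 30 bp of the joint summit in every replicate list that held the region.

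**Figure D3:**
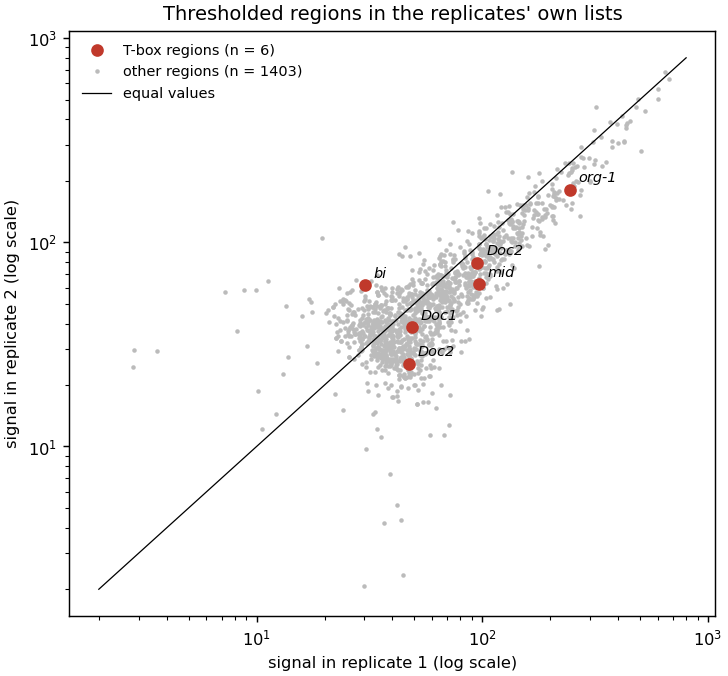
Signal in replicate 1 against signal in replicate 2, each from its own ranked list (log scales), for the 6 T-box regions with both values (red) and the other thresholded regions with both (grey), with a line of equal values. The bi region lies above the line, at 30.2 and 61.6, and the other 5 below it.

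Below the threshold, every T-box gene except Doc3 had further regions in the ranked list, 263 in all with those above it. Regions below the threshold are common, since 68.9% of all protein-coding genes had at least 1. They numbered 102 for bi, 58 for H15, 41 for mid, 24 for Doc2, 22 for Doc1, 11 for byn and 5 for org-1, the thresholded ones included. Just inside the threshold was the H15 region at 64.7 (IDR 0.00722). Just outside it was a second intronic region of bi (X, 4457585 to 4457920), with a signal of 52.1 (26.1 and 21.9 in replicates 1 and 2) and an IDR of 0.0140. The next was 26172 bp upstream of H15 (2L, 5377940 to 5378275), with a signal of 63.4, above 99.8% of the 115913 candidates, with 27.4 and 29.8 in the replicates and an IDR of 0.0296. H15 also had a region in coding sequence near its end, 10978 bp downstream of its nearest TSS, at 57.3 (23.3 and 28.9 in the replicates, IDR 0.143).

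Apart from H15 and bi, candidates at T-box genes were weaker. The strongest of mid, 4542 bp upstream of the TSS, had a signal of 42.6 (19.6 and 22.9 in the replicates), and that of Doc1, 2977 bp upstream, had 38.0 (21.8 and 15.6). The highest of byn (FBgn0011723) lay 618 bp upstream of its TSS, at 29.5 (15.01 and 17.4 in the replicates), above 76.2% of candidates, which had a median of 19.7. This summit falls within an intron of CG44837, which overlaps byn and has the nearest TSS for the second of the byn candidates (27.9). At org-1 nothing else came near the promoter region: the next candidate, in its coding sequence, had a signal of 24.0. For Doc3 the ranked list of replicate 1 held 6 regions, the highest at 12.4, that of replicate 2 held none, and the ranking of the replicates against each other held 1, at 20.1.

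**Figure D4:**
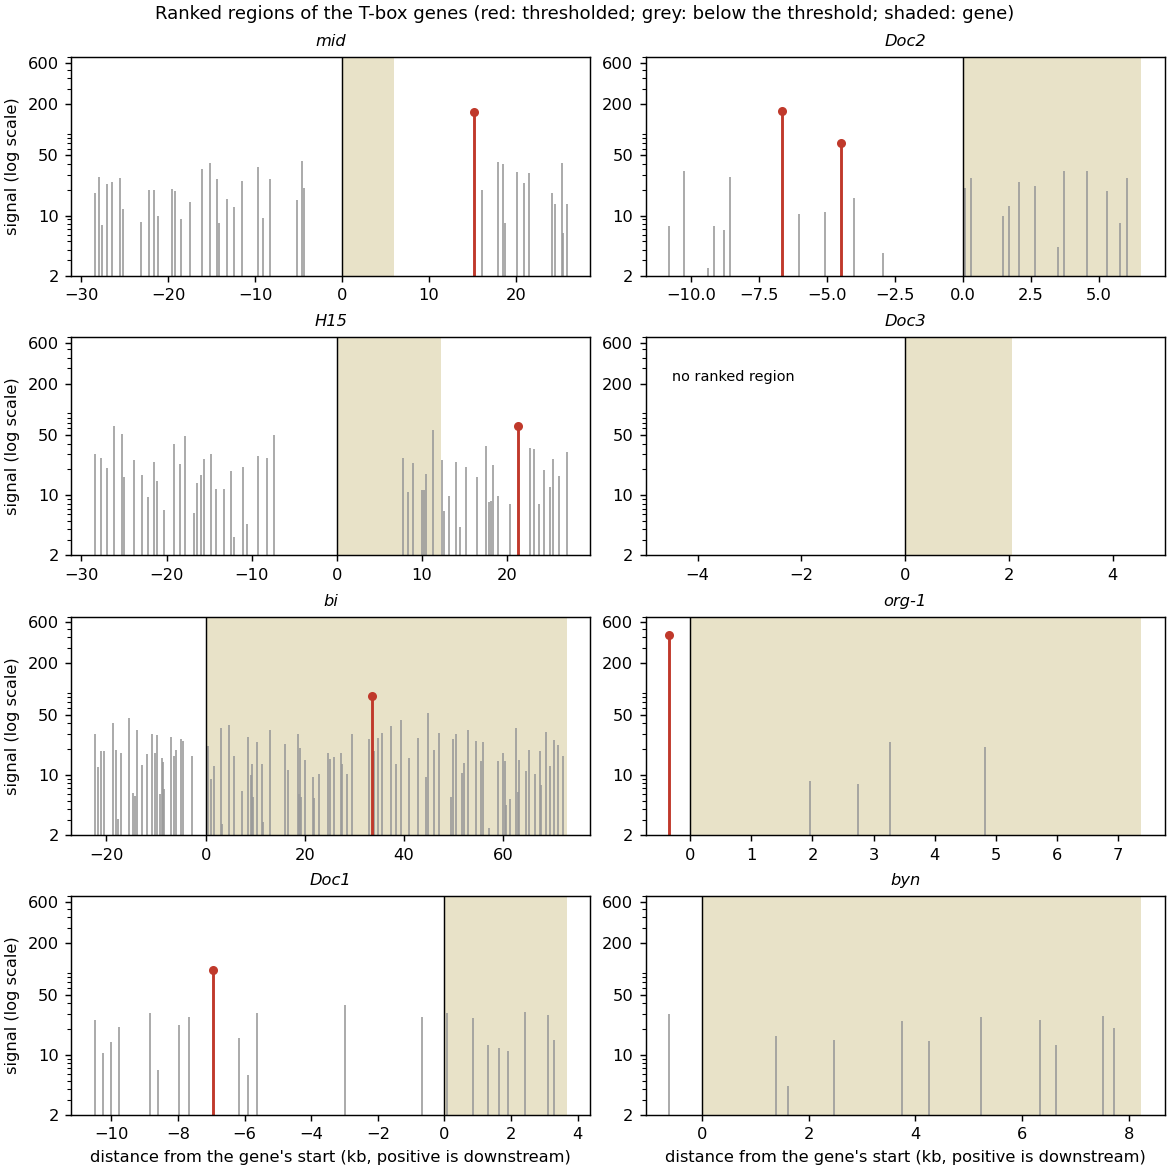
Signal (log scale) of every ranked region of each T-box gene by distance from the gene's start, downstream to the right, with thresholded regions in red, regions below the threshold in grey and the gene shaded. Thresholded summits lie downstream of mid and H15, within bi and upstream of Doc1, Doc2 and org-1, and there is none at byn and no ranked region at Doc3.

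Start sites of mid, H15 and Doc3 stood in stretches without ranked regions, as the plots by distance show. Around the start of mid no summit was listed over 19.6 kb, which takes in the whole gene and ends at the thresholded summit. The stretch was 15.7 kb in the list of replicate 1 and 15.1 kb in that of replicate 2. It measured 15.1 kb at H15 (5.3 kb and 16.5 kb in replicates 1 and 2) and 13.3 kb at Doc3 (1.9 kb and 12.5 kb). Such stretches are common, since 27.9% of all protein-coding starts lay in one at least as long as that of mid, while the median was 2.32 kb. At the other 5 genes it ran from 0.7 kb at Doc1 to 3.2 kb at bi.

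None of the sequences shown around the summits holds the word of Gsc-type homeodomains. TAATCC was within 50 bp of 0 of 7 T-box summits, against 3.67% of all thresholded regions and 2.90% of candidates, and within 150 bp of 1, that of mid (against 8.03% and 8.96%). TAATTA, which many homeodomains bind, was within 50 bp of none and within 150 bp of 2, the bi region with 2 matches and the near Doc2 region (against 17.8% of thresholded regions and 13.4% of candidates). AGGTGT, part of the site that T-box proteins themselves bind, starts at the summit base of the near Doc2 region and has a second match within 150 bp. It was the only T-box region with the word within 150 bp, against 8.78% of thresholded regions and 9.38% of candidates. A word of the Tinman type, TCAAGTG, was within 150 bp of the org-1 summit only (against 5.71% and 6.03%). GAGAG was within 150 bp of 2 summits, bi and org-1 (36.7% and 32.6%), and CAGGTA, the word of the early activator Zelda, of none (6.60% and 6.71%). The absence of a word says only that these letters are not in the windows.

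The org-1 promoter held ACAGTG 3 times within 150 bp of the summit, in the capitals of its sequence, and no other T-box region held it. This word was included because earlier results of these data had named it, so its presence is a description. It was within 150 bp of 30.3% of all thresholded regions, against 11.8% of candidates. At least 3 matches, as at org-1, were found in 19 of the 1470 regions (1.29%) and in 0.0716% of candidates. Promoter regions and others held at least 1 match about equally often, 31.0% of 532 and 30.0% of 938. In base composition the T-box summits were AT-rich like the rest of the list, with a median GC content of 31.7% within 50 bp against 33.7%. They ran from 23.8% at Doc1 to 38.6% at mid. Bases masked as repeats in the reference made up from 9.30% of the org-1 region to 31.3% of the far Doc2 region, with a median of 18.2%, against 16.9% for all regions.

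Genes that work beside the T-box factors were described by 5 lists, chosen with earlier results of these data known, and their counts are read beside the 9.22% of all genes. Values are those of the strongest region of each gene. Of 14 genes of the cardiac and dorsal mesoderm, 3 had a thresholded region: ths, an FGF ligand (80.6, with 53.9 and 29.1 in replicates 1 and 2), the muscle regulator Mef2 (69.4, 36.2 and 29.1) and the homeobox gene lbe (68.9, 34.5 and 30.7). The homeobox gene tin and the GATA factor gene pnr, partners of the Dorsocross genes in heart formation, had none. Of 8 genes of the amnioserosa and the U-shaped group, 4 had one, namely ush (150, with 64.8 and 78.2 in the replicates), dpp (104, 63.3 and 39.1), tup (91.4, 53.3 and 31.8) and zen (66.2, 36.5 and 28.8). Of 10 hindgut genes, 4 had one, led by bowl (274, with 145 and 126 in the replicates), then otp (141, 70.6 and 70.1), retn (94.8, 43.4 and 57.3) and wg (90.0, 56.1 and 34.8). Both otp and retn counted through a summit inside the gene and not by the nearest TSS.

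Among 7 Dpp targets and pathway genes of the imaginal discs, the class to which bi belongs, brk (155, with 92.8 and 60.3 in the replicates) and dpp had a region, and salm, salr, vg, Dad and tkv had none. In the visceral mesoderm list, where org-1 also acts, 3 of 7 had one, slp2 (274, with 137 in each replicate), kirre (239, 124 and 115) and bin (134, 70.6 and 64.0). None of these listed genes reached the 429 of org-1. The lists share dpp, pnr and bap, their genes differ in length, and the same limits hold for them as for the T-box counts.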

How the data were processed

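Gsc-eGFP ChIP-seq regions of 2 biological replicates of embryos 0 to 24 h old were analysed on dm6, the build in the labels. Chromatin was sonicated to 200 to 800 bp. The sources used here name no peak caller or aligner. The authors deposited a signal value per region without a stated scale, used here mainly to rank regions within 1 list. Means, SDs and log2 ratios over the replicates' own lists, and the distances to org-1, set values of 2 lists side by side. They thus include any difference in scale between those lists. Scores were deposited by the authors as a scaled IDR, and their −log10 IDR is printed as an IDR. Depth is unknown, since no read counts were analysed.

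All 1655 regions of the main list, 1470 of them on the 7 arms, were found in a ranked list of 121914. The lowest score of the main list was 830 (IDR 0.01). The 115913 candidates rank below this score and overlap no main region. A further 130 ranked regions on the arms had at least that score without being in the main list, 0 of them at a T-box gene. The 8 unnamed columns per ranked list were not used. Replicate values are those of the most overlapping region in the list of that replicate, and 1 bp of overlap counted as presence.

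Summits were assigned with Ensembl release 115 in Python 3.11.15 with pandas 2.3.3, tested on simulated data. Sequences are from the RefSeq copy of Release 6, where all 8 genes have the Ensembl coordinates. Named genes are the members, genes beside them, up to 4 per list by signal, and the 3 most like the strongest member in log2 signal. The members, lists and words were chosen with earlier results of these data known. Alternatives were other lists, single replicates, stronger regions, 1 region per overlap and other assignments.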

Additional observations from a re-analysis of the deposited data

How the results depend on the processing

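Of the 7 T-box regions 4 lie below the median signal of the list, and the depth behind the signals is unknown. With 1 region kept where regions overlap, and with the nearest TSS only, 6 genes and 7 regions were found as before. The conservative list gave 5 genes and 5 regions with a median signal of 160. Leaving out 1 replicate gave 4 genes each time, 4 to 5 regions, a median signal of 71.0 to 95.1 on the scale of 1 replicate's list, and 211 to 252 ranked regions: without replicate 1 the regions of Doc1 and H15 and the near Doc2 region were lost, without replicate 2 those of bi and H15. The stronger 50% of regions held 3 genes (mid, Doc2 and org-1) and 3 regions, with a median of 165. By gene body alone 1 gene (bi) and 1 region remained (82.6), with 116 ranked regions against 263. Within 2 kb of a TSS, 1 gene (org-1) and 1 region were left (429). With noncoding starts counted too, 3 genes (bi, Doc2 and org-1) and 4 regions were left, with a median of 124, because starts of the noncoding genes lncRNA:CR45287, lncRNA:CR43713 and lncRNA:CR46451 lay closer to the regions of mid, H15 and Doc1. Of all 13968 protein-coding genes, 9.22% had a region in the main setting, 5.16% among the stronger 50%, 4.68% by gene body, 5.34% within 2 kb and 8.34% with noncoding starts. The 3 regions shared by both replicates were 3 under every overlap rule and list tried. The other ranked list gave 258 ranked regions. No paired analysis was possible because the series has 1 group.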
